A study of Homo sapiens with 4 samples.

Results

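The EGFR family of receptor tyrosine kinases, its ligands and its feedback inhibitor ERRFI1 were examined in KYSE170 cells, an established human line of squamous carcinoma of the oesophagus. The set held 10 genes, namely EGFR, ERBB2, ERBB3, AREG, EREG, TGFA, HBEGF, BTC, EPGN and ERRFI1. A probe set, the group of array probes that reads 1 transcript or a group of like transcripts, was counted to a gene when the platform annotation named that gene alone. By this rule 29 of 54613 probe sets belonged to 8 of the 10 genes, against 19775 genes with such a probe set in all. AREG and EPGN had no probe set of their own and have no values here.

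One group was left untreated (2 arrays). The other had received EDHB, or ethyl-3,4-dihydroxybenzoate, at 50 µg/ml for 12 h (2 arrays). Both groups were the same line, grown in RPMI medium with fetal serum and antibiotics, and no genetic alteration was named for either. EDHB is an inhibitor of prolyl hydroxylases, the oxygen-, iron- and 2-oxoglutarate-dependent enzymes that mark hypoxia-inducible factors for degradation. Nothing in the labels says that the arrays of a group came from separate cultures, so the p-values measure only the spread between these arrays, which may be technical.

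EGFR, ERBB2 and ERBB3 sit in the plasma membrane and signal as pairs. EGFR binds the ligands TGFA, AREG, EREG, BTC, HBEGF and EPGN, which are made as membrane-anchored precursors and released by metalloproteases. ERBB2 has no known ligand of its own, and ERBB3 has a weak kinase and signals mainly through its partners once a neuregulin binds. ERRFI1, also called MIG6, binds the active kinase domain of EGFR and ERBB2 and shuts it down, and its gene is itself induced by signalling through the receptors. EGFR is often highly expressed in squamous carcinomas of the oesophagus.

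Median intensities of the 4 arrays lay between 23.3 and 23.5. The rows of the replicate 2 columns were not in the order of replicate 1. Across probe sets the log2 levels of the untreated arrays correlated at 0.415 as deposited and at 0.997 once the order was restored (EDHB arrays 0.418 and 0.997). The order was found by aligning the untreated levels, so their correlation does not test it. Each EDHB value moved with the untreated value of its row, and the replicate 1 arrays correlated at 0.996. The EDHB correlation therefore hardly tests the order either. The log2 differences within replicate 1 and within replicate 2 correlated at 0.04 as deposited and at 0.38 once restored. All 29 EGFR family probe sets were restored, and none stood among the probe sets that had been listed separately in replicate 2. Of those 193 listed values 75 were not placed, so the shares given for all genes may lack some large differences. The restored order is an inference from the values, so the difference within the replicate 1 pair, which needs no restoring, is given for each gene. Of the squamous markers, 5 of 6 measured genes (KRT5, SFN, DSG3, DSC3 and PERP) lay at or above the median probe set of 4.54 log2 units and KRT14 lay below it, and all 4 general epithelial markers lay above. The leukocyte markers were all below (0 of 4 measured), 2 of 6 fibroblast and 1 of 4 endothelial markers lay at or above it, and the summed log2 level of the squamous list ran from 13.65 to 13.71 on untreated and from 13.75 to 13.81 on EDHB arrays. The part of this small shift in the results was not tested.

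The question was which parts of the receptor system stood at another RNA level after EDHB. ERRFI1, ERBB3 and HBEGF had the largest differences among the family genes above the median probe set. They were higher on both EDHB arrays than on both untreated arrays, by 2.33-fold, 1.70-fold and 1.5-fold. EGFR, the receptor the system is named for, had a fold of 1.02 and overlapping groups. No family gene passed limma's test at a Benjamini-Hochberg adjusted p under 0.05 over 19752 genes (0 of 8), where 0.0101% of all genes passed. ERBB3 was the only one at an adjusted p under 0.1, where 0.729% of all genes lay. The design is small, since with 2 arrays against 2 an exact permutation test of a single gene cannot give a two-sided p below 0.333.

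In direction, the log2 difference was above 0 for 8 of 8 family genes and for 9770 of all 19752 genes tested. The family median was 0.39, beside a median of 0.00 over all genes tested. EGFR and EREG were only 0.03 above 0, and each turned sign when some single arrays were left out. Both EDHB arrays lay above both untreated arrays for 6 of the 8, against 23.3% of all genes (22.6% had both EDHB arrays below), and the groups overlapped for EGFR and EREG. At an unadjusted p under 0.05, limma placed 4 of the 8 on the higher side (ERBB3, ERRFI1, HBEGF and BTC), where 8.86% of all genes stood, and none of the 8 on the lower side, where 8.05% did. Over all 29 probe sets taken singly, 7 had an unadjusted p under 0.05 in either direction (13.5% of all probe sets did). Of these, ERBB2 210930_s_at was lower (-0.26) and the rest were higher. Both EDHB arrays lay above for 12 of the 29 (20.2% of all) and below for 3 (21.8% of all), and the groups overlapped for 14. The set was chosen with earlier results of these arrays known, so these counts describe it and carry no test. In RNA from a whole culture, more cells of a kind and more RNA per cell cannot be told apart.

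**Figure D1:**
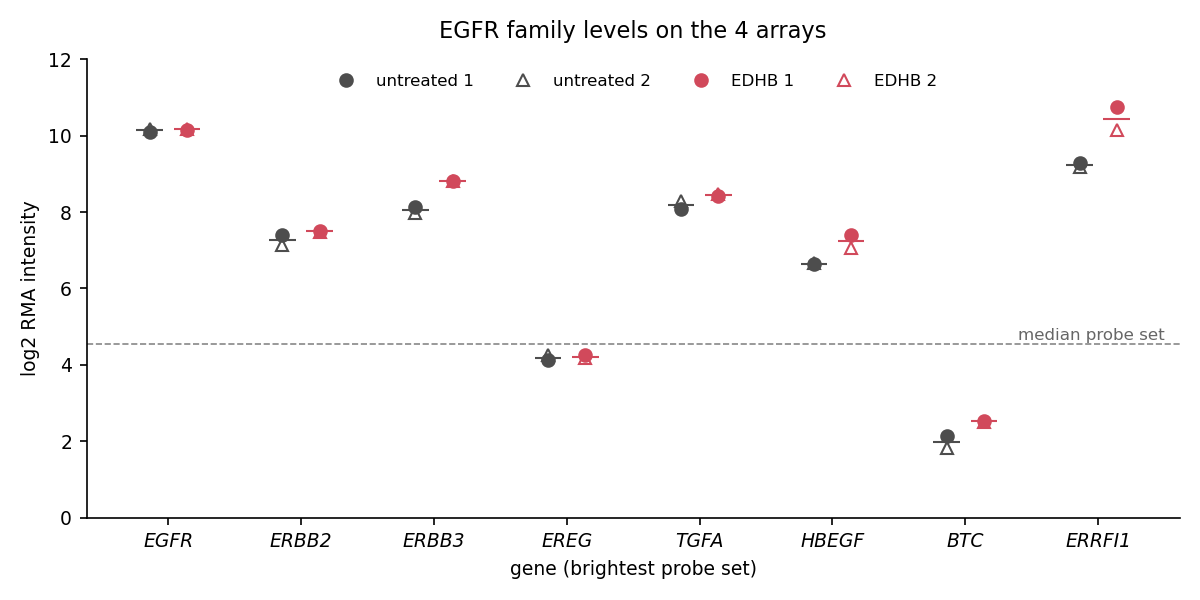
Log2 RMA intensity (vertical axis) of the brightest probe set of each of the 8 EGFR family genes on the untreated and EDHB arrays. Circles are replicate 1, triangles replicate 2, horizontal bars the group means (n = 2), and the dashed line is the median probe set at 4.54. ERBB2, ERBB3, TGFA, HBEGF, BTC and ERRFI1 stood higher on both EDHB arrays. EGFR stayed between 10.10 and 10.18 on all 4 arrays, and EREG and BTC lay below the dashed line. Heights of different genes are not comparable, because each probe set has its own response.

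Among the receptors, EGFR read 10.10 and 10.18 log2 units on the untreated arrays and 10.15 and 10.18 on the EDHB arrays with its brightest probe set, 224999_at. The groups overlapped, and the values were close together, with a difference of 0.06 within replicate 1 and 0.0 within replicate 2. The means were 10.14 ± 0.06 and 10.17 ± 0.02 (SD, n = 2), and the difference of 0.03 ± 0.08 (SE; 95% interval -0.17 to 0.23) had an adjusted p of 0.897 by limma with Benjamini-Hochberg adjustment. EGFR was read by 9 probe sets in all, of which 6 lay at or above the median probe set, and these 6 differed by -0.04 to 0.17. Both EDHB arrays lay higher for 3 of the 9, lower for 2 and overlapped the untreated arrays for 4, with no probe set at an unadjusted p under 0.05. The lower pair, 1565483_at at -0.15 and 211551_at at -0.28, were below the median probe set, where a level is not shown to be above background.

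ERBB2, the preferred partner of the other receptors, read 7.39 and 7.14 on untreated and 7.51 and 7.48 on EDHB arrays with 216836_s_at. Both EDHB values lay above both untreated values, and the untreated arrays were farther apart than the EDHB arrays. The difference was 0.23 ± 0.11 (SE; 95% interval -0.05 to 0.51), 1.17-fold, with an adjusted p of 0.369 by limma with Benjamini-Hochberg adjustment. Within replicate 1 it was 0.12 and within replicate 2 it was 0.34. Without untreated replicate 2 the ERBB2 difference was 0.10, and without untreated replicate 1 it was 0.35. The remaining pair of ERBB2 probe sets was below the median probe set, and of these 210930_s_at lay lower on both EDHB arrays, at -0.26 ± 0.09, so the ERBB2 probe sets did not share a direction.

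ERBB3, the neuregulin receptor with the weak kinase, read 8.13 and 7.98 on untreated arrays and 8.82 on both EDHB arrays with 226213_at. The groups were well apart, and the spread within either group was small beside the gap. Means were 8.06 ± 0.10 and 8.82 ± 0.00 (SD, n = 2), and the difference was 0.76 ± 0.09 (SE; 95% interval 0.54 to 0.98) or 1.70-fold. Its adjusted p was 0.083 by limma with Benjamini-Hochberg adjustment, the lowest of the family. With limma's prior variance allowed to follow intensity, under which 2.4% of all genes passed, ERBB3 passed at an adjusted p of 0.0146, and over all its alternatives the adjusted p ran from 0.0146 to 0.571.

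A further ERBB3 probe set, 202454_s_at, read 6.54 and 6.46 on untreated and 7.16 and 7.26 on EDHB arrays. Its difference of 0.71 ± 0.09 (1.64-fold) was close to that of the brighter one, and within the replicate numbers the pair gave 0.69 and 0.84 (226213_at) and 0.62 and 0.80 (202454_s_at). The remaining ERBB3 probe sets stood apart from these, at 0.16 ± 0.11 (1563253_s_at), -0.05 ± 0.09 (1563252_at) and 0.00 ± 0.13 (215638_at, below the median probe set), each with overlapping groups. With the mean of the ERBB3 probe sets at or above the median in place of the brightest, the difference was 0.40.

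**Figure D2:**
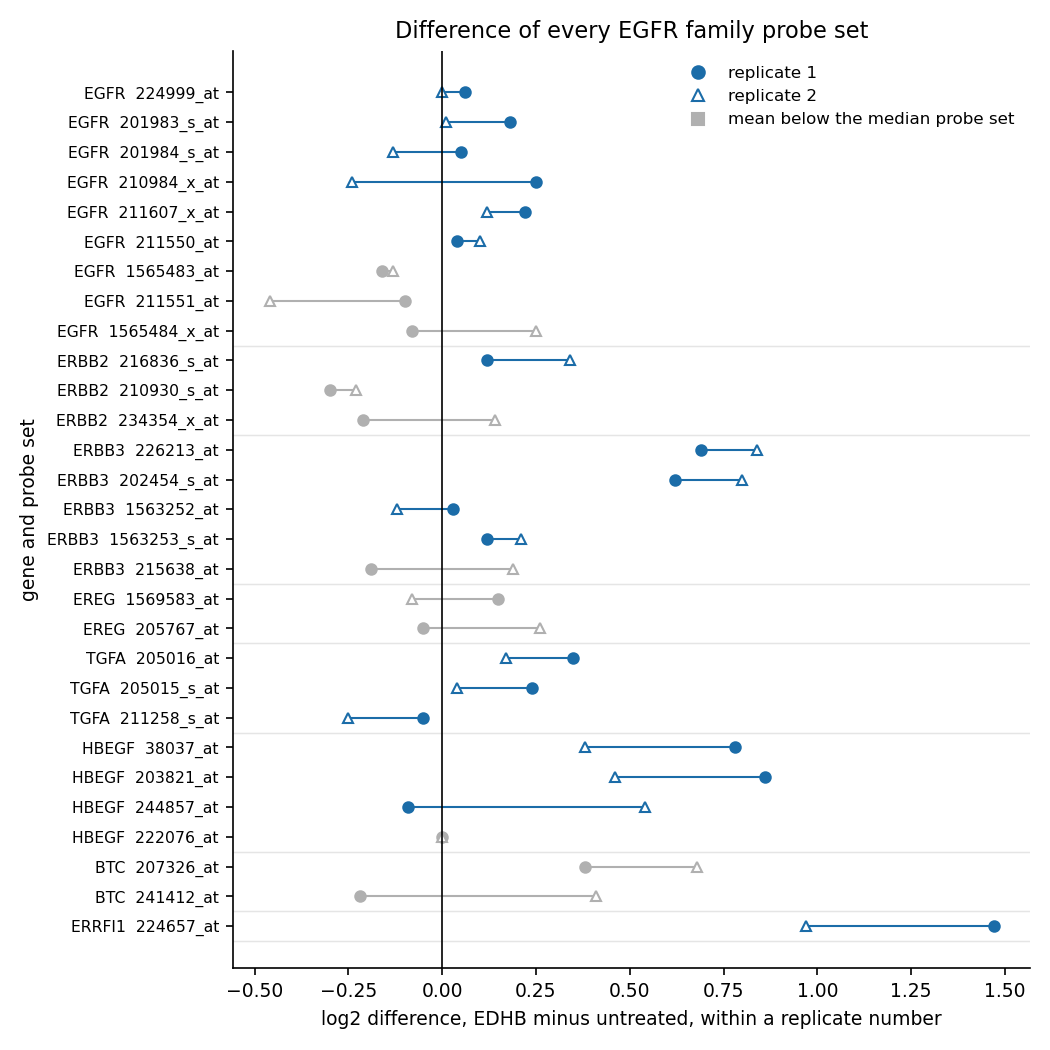
Log2 difference, EDHB minus untreated (horizontal axis), of each of the 29 EGFR family probe sets within replicate 1 (circles) and within replicate 2 (triangles), with a line joining them. Grey marks probe sets with a mean below the median probe set. ERRFI1 (0.97 and 1.47), one pair of ERBB3 probe sets (0.62 to 0.84) and one pair of HBEGF probe sets (0.38 to 0.86) stand to the right of 0 in both replicates. Further probe sets of EGFR, ERBB2, ERBB3, TGFA and BTC also lie to its right in both. The EGFR probe sets as a whole lie on either side of it.

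Among the ligands, HBEGF had the largest difference of those above the median probe set. HBEGF is the heparin-binding ligand, which binds EGFR and ERBB4 and whose precursor is also the diphtheria toxin receptor. It read 6.63 and 6.66 on untreated and 7.41 and 7.05 on EDHB arrays with 38037_at. Every EDHB value was above every untreated value, but the EDHB arrays differed from each other more than the untreated ones did. The means were 6.65 ± 0.02 and 7.23 ± 0.26 (SD, n = 2). The difference was 0.58 ± 0.14 (SE; 95% interval 0.23 to 0.93), 1.5-fold, with an adjusted p of 0.159 by limma with Benjamini-Hochberg adjustment.

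For HBEGF the difference was 0.78 within replicate 1 and 0.38 within replicate 2. The probe set 203821_at read 6.41 and 6.63 on untreated and 7.27 and 7.10 on EDHB arrays, a difference of 0.66 ± 0.12 or 1.58-fold, with 0.86 and 0.46 within the replicates. So the bright HBEGF probe sets had the same direction and a similar size. The probe set 244857_at, close to the median probe set, differed by 0.22 ± 0.23 with overlapping groups, and 222076_at held the value 2.68 on all 4 arrays.

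The RefSeq promoter table (GRCh38.p14) held 11 start sites for 9 of the 10 genes, with none listed for ERBB3, and the 250 bases upstream of each were searched on both strands. The motifs were the core of the hypoxia response element, ACGTG or GCGTG, since EDHB acts on the enzymes that control its factor, the GC box GGGCGG, and the AP-1 site TGACTCA (also read as TGAGTCA), with overlapping matches counted. The hypoxia core stood in 5 of the 11 family promoters (45.5%), against 43.2% of 35116 promoters in the table. The 5 were those of EPGN, EREG, AREG and BTC and one of the TGFA start sites. The GC box was in 5 of 11 (45.5% against 42.6%) and the AP-1 site in 1 of 11, an EGFR start site (9.09% against 4.2%). The HBEGF window is shown because HBEGF was the most different ligand above the median. It lies at chr5:140346604-140346853 on the minus strand, with the GC boxes in capitals, has 5 GC boxes and no hypoxia core in these letters, and reads 5′ to 3′ as follows.
HBEGF promoter: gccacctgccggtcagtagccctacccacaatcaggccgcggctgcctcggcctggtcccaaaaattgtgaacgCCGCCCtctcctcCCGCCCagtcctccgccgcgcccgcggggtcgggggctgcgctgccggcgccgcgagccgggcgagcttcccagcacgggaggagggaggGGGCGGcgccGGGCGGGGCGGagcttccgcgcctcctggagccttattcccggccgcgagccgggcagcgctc

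TGFA, the ligand that many carcinomas make for their own EGFR, read 8.08 and 8.30 on untreated and 8.42 and 8.47 on EDHB arrays with 205016_at. The EDHB values were both higher than the untreated ones. The difference was 0.26 ± 0.10 (SE; 95% interval 0.00 to 0.52), 1.20-fold, with an adjusted p of 0.300 by limma with Benjamini-Hochberg adjustment, and it was 0.35 and 0.17 within the replicates. Without untreated replicate 1 the TGFA difference was 0.15. The other TGFA probe sets differed by 0.14 ± 0.09 (205015_s_at, groups apart) and -0.15 ± 0.15 (211258_s_at, groups overlapping), and the mean of the TGFA probe sets gave 0.08.

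EPGN, EREG, AREG and BTC are, in this order, 4 consecutive protein-coding genes of chromosome 4 in RefSeq, and the pair of these with values was dim. EREG, epiregulin, read 4.12 and 4.25 on untreated and 4.27 and 4.17 on EDHB arrays with 1569583_at. The groups overlapped, and the difference was 0.03 ± 0.09 (SE; 95% interval -0.19 to 0.26) with an adjusted p of 0.894 by limma with Benjamini-Hochberg adjustment. The EREG difference was 0.15 within replicate 1 and -0.08 within replicate 2. The sign of the EREG value turned when single arrays were left out.

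BTC, betacellulin, read 2.15 and 1.82 on untreated and 2.53 and 2.5 on EDHB arrays with 207326_at. Both EDHB values were higher, yet all 4 lay far below the median probe set of 4.54 and are not shown to be above background. The difference was 0.53 ± 0.13 (SE; 95% interval 0.21 to 0.86) with an adjusted p of 0.162 by limma with Benjamini-Hochberg adjustment. The BTC difference was 0.38 within replicate 1 and 0.68 within replicate 2. With a pseudocount of 16 added to the intensities it was 0.12. The other BTC probe set, 241412_at, gave 0.09 ± 0.16 with overlapping groups.

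ERRFI1, the feedback inhibitor, had the largest difference of the family. Its only probe set, 224657_at, read 9.27 and 9.17 on untreated and 10.74 and 10.14 on EDHB arrays. The groups were separated by more than the distance between the EDHB arrays. The means were 9.22 ± 0.07 and 10.44 ± 0.42 (SD, n = 2), and the difference was 1.22 ± 0.20 (SE; 95% interval 0.70 to 1.74) or 2.33-fold. ERRFI1 did not pass in the default fit, with an adjusted p of 0.117 by limma with Benjamini-Hochberg adjustment.

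Within replicate 1 the ERRFI1 difference was 1.47 and within replicate 2 it was 0.97, so EDHB replicate 1 carried the higher value here as it did for HBEGF. When limma's prior variance followed intensity, ERRFI1 passed at a Benjamini-Hochberg adjusted p of 0.0334, and over all its alternatives the adjusted p ran from 0.0334 to 0.571. ERRFI1 and ERBB3 were then the 2 called members, both on the higher side, where 1.37% of all genes were called higher. With every probe set tested singly under that setting, 1 of the 29 passed, ERBB3 226213_at, where 0.0918% of all probe sets passed on the higher side. The ERRFI1 window is shown because this gene had the largest difference. It lies at chr1:8026310-8026559 on the minus strand (RefSeq, GRCh38.p14), has 1 GC box, in capitals, and no hypoxia core in these letters, and reads 5′ to 3′ as follows.
ERRFI1 promoter: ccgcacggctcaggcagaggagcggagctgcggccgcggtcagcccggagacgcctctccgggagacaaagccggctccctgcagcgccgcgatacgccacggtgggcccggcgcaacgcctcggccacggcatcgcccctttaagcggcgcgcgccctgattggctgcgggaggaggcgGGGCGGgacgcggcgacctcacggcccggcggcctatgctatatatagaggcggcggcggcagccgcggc

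**Figure D3:**
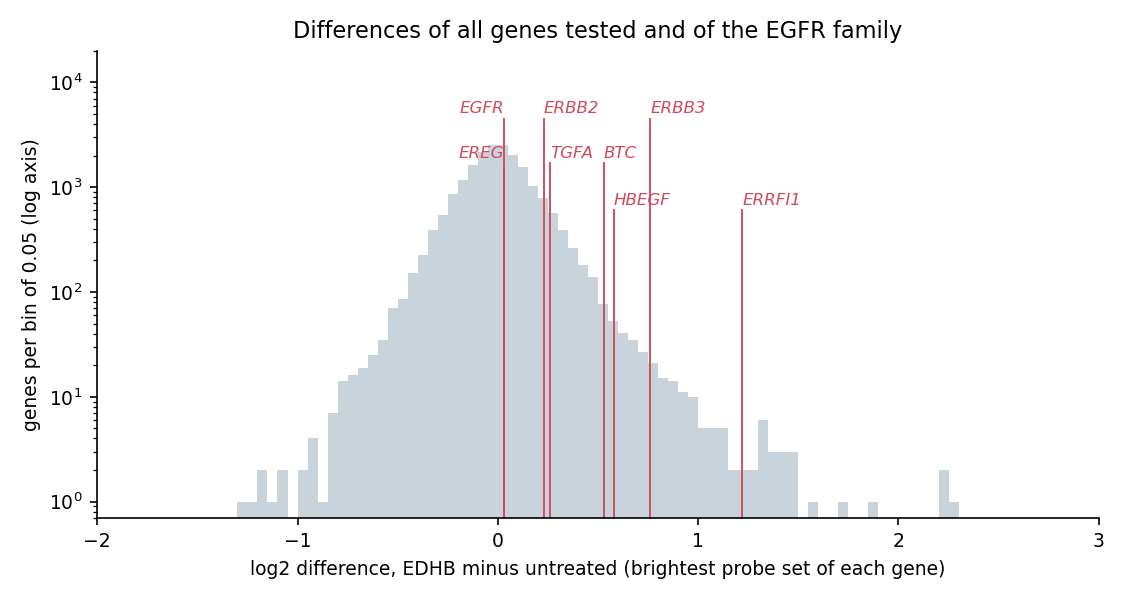
Number of genes (vertical axis, log scale) by log2 difference, EDHB minus untreated (horizontal axis, bins of 0.05), for the 19752 genes tested, with a red line at each EGFR family gene. EGFR and EREG (both 0.03) fall at the centre, ERBB2 (0.23) and TGFA (0.26) on the right flank, BTC (0.53), HBEGF (0.58) and ERBB3 (0.76) farther out, and ERRFI1 (1.22) in the sparse right tail. The heights of the red lines have no meaning. The tails may lack some large differences, because 75 of the 193 values listed separately in replicate 2 were not placed.

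Beside the family, a list of 60 further genes of the pathway was drawn up by role, and 53 of them had a probe set of their own. None passed in the default fit of limma (0 of 53, where 0.0101% of all genes passed), 10 were higher and 3 lower at an unadjusted p under 0.05 (16.9% of all genes in either direction), and 40 were not. The median log2 difference of the 53 was 0.01, beside 0.00 for all genes. With the intensity trend 2 of the 53 passed, LRIG1 on the higher and NRG1 on the lower side, where 1.37% and 1.03% of all genes did. Neither passed with the trend when every probe set was tested singly (0 calls in the list, where 82 of 54467 probe sets passed in all). Leaving out any array leaves 1 array in a group, so those fits cannot decide whether either gene passes. By role, 4 of 16 adaptors and effectors, 2 of 15 ubiquitin ligases and trafficking genes, 2 of 10 negative regulators, 1 of 7 sheddases and 1 of 5 other receptors and ligands were higher at that unadjusted p, where 8.86% of all genes were (8.05% lower). The lower ones were the sheddase ADAM12, the ligand NRG1 and the negative regulator SOCS5 (-0.24 ± 0.08), which stood just outside the 12 genes taken by size.

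LRIG1, a membrane protein that promotes the ubiquitination and breakdown of the receptors, read 5.28 and 5.43 on untreated and 6.15 and 5.91 on EDHB arrays. These groups were well apart. The difference was 0.68 ± 0.11 (SE), 1.6-fold, with an adjusted p of 0.119 by limma with Benjamini-Hochberg adjustment and of 0.0492 with the intensity trend, and 0 of its 3 other probe sets went the other way. CBLB, a ubiquitin ligase of the family that tags activated EGFR, differed by 0.48 ± 0.11 (1 of 2 other probe sets with the opposite sign). STAM2, part of the endosomal complex that sorts ubiquitinated receptors, differed by 0.33 ± 0.08 (1 of 3 other probe sets with the opposite sign). ERBIN, a scaffold that binds ERBB2, differed by 0.25 ± 0.08 (1 of 2 with the opposite sign).

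NRG1, a neuregulin and ligand of ERBB3, went the other way from its receptor. It read 8.12 and 8.39 on untreated and 7.59 and 7.61 on EDHB arrays, with the groups apart. The NRG1 difference was -0.65 ± 0.11 (SE; within the replicates -0.53 and -0.78), 0.636-fold, with an adjusted p of 0.119 by limma with Benjamini-Hochberg adjustment and of 0.0394 with the intensity trend. None of its 5 other probe sets had the opposite sign. NRG4, a ligand of ERBB4, read 4.53 and 4.32 on untreated and 4.84 and 5.17 on EDHB arrays, a difference of 0.58 ± 0.14 that began below the median probe set. EGF, ERBB4 and NRG2, given here for their roles and outside the rule for named genes, lay below the median probe set and differed by -0.04, -0.16 and -0.05.

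Among the adaptors, SOS2, an exchange factor that loads RAS with GTP, had the largest difference. It read 6.54 and 6.94 on untreated and 7.38 and 7.54 on EDHB arrays, a difference of 0.72 ± 0.15 or 1.64-fold, with 1 of 5 other probe sets going the other way. GRB7, an adaptor that binds ERBB2, differed by 0.40 ± 0.08. GAB1, a docking protein for PI3-kinase and the phosphatase PTPN11, differed by 0.37 ± 0.07 (2 of 6 other probe sets with the opposite sign). PIK3R1, the regulatory subunit of PI3-kinase, differed by 0.33 ± 0.08. All 4 had EDHB arrays above untreated arrays in both replicates, and none passed the adjusted test in the default fit.

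Of the genes that act on ligand release, RHBDF1, a partner of the metalloprotease ADAM17, differed by 0.28 ± 0.09. ADAM12, a metalloprotease that can cleave HBEGF, was lower on both EDHB arrays, at 6.39 and 6.41 against 6.72 and 6.74, a difference of -0.33 ± 0.07 with 1 of 4 other probe sets going the other way. The adjusted p of the 12 named pathway genes ran from 0.119 (LRIG1, NRG1) to 0.235 (ERBIN) by limma with Benjamini-Hochberg adjustment.

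**Figure D4:**
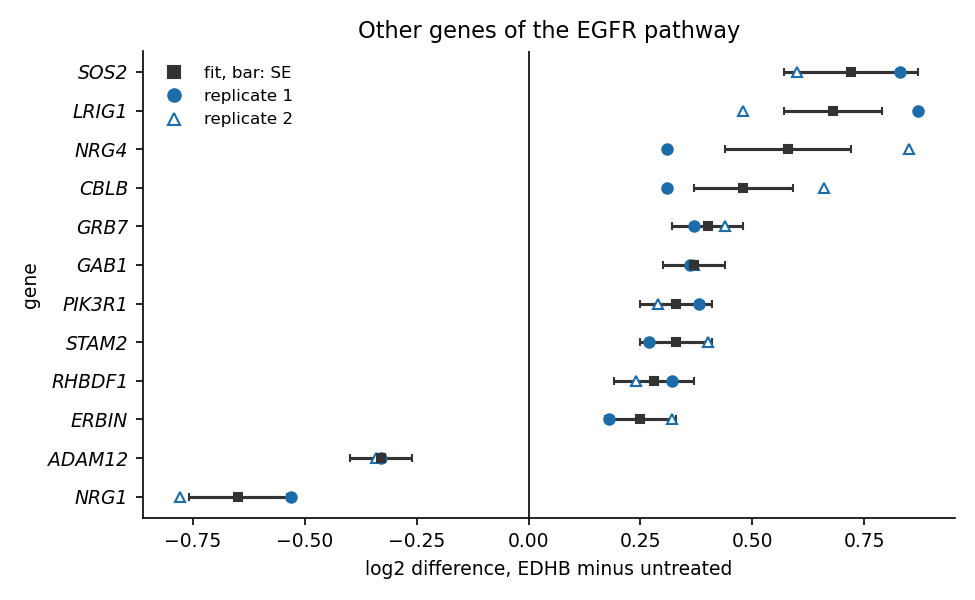
Log2 difference, EDHB minus untreated (horizontal axis), of the 12 named genes of the pathway list. Squares with bars are the fitted difference and its SE, circles the value within replicate 1 and triangles the value within replicate 2. SOS2 (0.72) and LRIG1 (0.68) have the largest positive values, and NRG1 (-0.65) and ADAM12 (-0.33) lie to the left of 0 in both replicates.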

How the data were processed

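The arrays were Affymetrix ones, read with biotin-labelled material made from total RNA, per the labels' protocols. The deposited table held linear intensity values per probe set, made by the authors with RMA per the submitters' processing notes; its software and version are not given in the sources used here. Because RMA brings all arrays to 1 distribution, any global difference between them is removed. Values were turned into log2 with no pseudocount.

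In the replicate 2 columns 148 probe sets listed as higher and 45 as lower had been set apart from 54419 others, each run in ID order. Each row was found again by aligning untreated levels in ID order (Student's t density, scale 0.15, 3 degrees of freedom), and rows with a posterior of at least 0.95 were kept (54467 of 54613). Of the 193 listed values, 75 were not placed, and 146 probe sets were not restored in all. The lists held probe sets that differed by at least 2-fold in replicate 2. Large differences were therefore lost more often than small ones. The shares and calls given for all genes and all probe sets may lack some of them, and the size of this effect was not tested. The posterior of every EGFR family probe set rounded to 1.0. Each gene was represented by its brightest probe set with 1 gene, which gave 19752 genes. The groups were compared with limma 3.58.1 under R 4.3.3 (lmFit, then eBayes with 2 residual and 3.06 prior degrees of freedom, and Benjamini-Hochberg adjustment). The code was also run on simulated data drawn from distributions of the kind the methods assume, which does not test those assumptions. Values of further probe sets of a gene come from a separate limma fit of the same form over 54467 probe sets. Its SEs and p-values can differ from those of the gene fit. For ERBB3 226213_at the limma adjusted p was 0.083 in the gene fit and 0.196 in the probe set fit. Promoters were read from a RefSeq table. Python 3.11.15, numpy 2.4.6, pandas 2.3.3 and matplotlib 3.10.9 were used.

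Members and lists were chosen with earlier results of these data known. All members were named, and of the pathway list at most 12 genes by size of difference, at an unadjusted p under 0.05 with 1 sign in both replicates (13 met this). Having only 2 arrays a group limits how precise any value is.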

Additional observations from a re-analysis of the deposited data

How the results depend on the processing

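The signs of the ERBB2, ERBB3, TGFA, HBEGF, BTC and ERRFI1 differences were the same under every alternative run for them. This was largely fixed beforehand. Both EDHB arrays lay above both untreated arrays for these genes, so leaving out an array or using the replicate 1 pair could not turn the sign. The brightest probe set stood for each gene in all alternatives but the mean of probe sets, so further probe sets entered only there. EGFR turned to -0.01 without untreated replicate 1 (range -0.01 to 0.07 without 1 array), and EREG to -0.03 without untreated replicate 1 and -0.01 without EDHB replicate 1 (range -0.03 to 0.10), with the same values under the intensity trend. EGFR family calls went from 0 to 2 with the intensity trend and to 2 without dim genes (ERBB3 and ERRFI1), and to 1 (ERBB3) with a pseudocount of 16 and with the intensity trend over single probe sets. Calls in the pathway list went from 0 to 2 with the trend, and stayed at 0 with the trend over single probe sets. Without dim genes the list had 4 calls (GAB1, GRB7, LRIG1 and NRG1), where 595 genes were called in all. That setting left out 7358 of 19752 genes, among them 4 of the 53 listed and 2 of the 8 family genes. Calls among all genes went from 2 to 475 with the trend, 595 without dim genes, 161 with a pseudocount of 16, 44 with median centring, 40 with cyclic loess, 82 with the trend over single probe sets, and 0 at a posterior of at least 0.5 or over single probe sets. With each array left out in turn, the differences ran from 0.10 to 0.35 for ERBB2, 0.69 to 0.84 for ERBB3 and 0.15 to 0.37 for TGFA. They ran from 0.40 to 0.76 for HBEGF, 0.37 to 0.70 for BTC and 0.93 to 1.52 for ERRFI1. A pseudocount of 16 brought BTC to 0.12. The combinations with the trend were chosen after seeing the data. Where a call moved, the cause was not tested.

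The labels do not say whether the replicate numbers pair an untreated with an EDHB array. The correlation of same-numbered deviations was 0.09 over 19752 genes, and with only 2 pairs it cannot decide this. With the replicate block 0 genes were called, also with the trend, and ERBB3, ERRFI1, HBEGF and BTC had an adjusted p of 0.277 by limma. Dim probe sets limit EREG and BTC, which have no value without dim genes.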
